A study of Mus musculus with 6 samples.

Results

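OCT4 and NANOG binding was examined at 9 genes of FGF signalling and of the negative feedback on ERK, which are *Fgf4*, *Fgfr1*, *Fgfr2*, *Spry1*, *Spry2*, *Spry4*, *Dusp6*, *Etv4* and *Etv5*. All intervals of the 6 peak lists that lie within 20 kb of the body of any of these genes were taken, and this gave 43 of 23767 distinct intervals, here called regions. The cells were E14Tg2a mouse embryonic stem cells (ESCs) that carry a 2a-destabilised GFP cassette with a drug resistance marker at *Esrrb* (E-GFPd1), so that GFP falls with little delay when *Esrrb* is switched off. All fractions came from the same kind of culture with serum and LIF and were sorted after fixation by GFP. The fractions are not time points, so words such as lost, kept, gone or order refer to presence across the lists. Esrrb-GFP high cells were the brightest 10% of the culture, Esrrb-GFP medium cells the 15% next to the negative gate, and Esrrb-GFP negative cells those of the negative gate. Both libraries of negative cells are named Esrrb-low in another label field, and they were taken as negative because the field for the sorted fraction calls them so. There was 1 library per factor and fraction, each made from pooled immunoprecipitations, so no spread between replicates exists and no test between fractions was made. A list holds the position of each region and neither a score nor a read count. Sequencing depth is therefore unknown, a region is either present in a list or not, and absence means that it was not called or that it kept less than 50% of its highest signal in another library. The lists hold no expression values, so the sorted fractions were not checked against marker genes.

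FGF4 is the main FGF ligand that ESCs make. It binds FGF receptors on the same or neighbouring cells, and through adaptors, RAS, RAF and MEK it activates the kinases ERK1 and ERK2, which move ESCs out of the naive state and towards lineage commitment. ERK activity in turn induces its own inhibitors, the Sprouty proteins and the phosphatase DUSP6, and the ETS transcription factors ETV4 and ETV5, so the levels of these transcripts are widely used as readouts of the pathway. OCT4 and NANOG are transcription factors of the pluripotency network, and OCT4 with SOX2 is a known activator of *Fgf4*.

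Of the 43 regions, 11 had OCT4 and NANOG together in Esrrb-GFP high cells, and these fall into the 2 classes that the study defines. In Class I neither factor is bound in negative cells, and in Class II OCT4 is bound there without NANOG. There were 7 Class I and 4 Class II regions at these genes. The sequences of the 9 such regions at *Fgf4*, *Fgfr1*, *Fgfr2* and *Etv5* are printed because the comparison of the fractions turns on them. They were read from the plus strand of mm9, from 5′ to 3′, with capitals for an octamer (ATGCAAAT, the OCT4 binding motif, or its reverse complement ATTTGCAT) or for the ESRRB motif TCAAGGTCA with at most 1 mismatch. The region at *Fgf4* is longer than the 300 bases around its centre that are shown.
*Fgf4*, Class I, chr7:152043762-152044061: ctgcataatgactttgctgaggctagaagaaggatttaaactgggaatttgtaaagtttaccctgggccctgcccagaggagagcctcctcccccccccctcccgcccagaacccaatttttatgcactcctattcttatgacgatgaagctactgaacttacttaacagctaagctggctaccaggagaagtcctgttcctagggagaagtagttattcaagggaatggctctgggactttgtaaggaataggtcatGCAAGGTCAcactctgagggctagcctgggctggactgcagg
*Fgfr1*, Class II, chr8:26623792-26624051: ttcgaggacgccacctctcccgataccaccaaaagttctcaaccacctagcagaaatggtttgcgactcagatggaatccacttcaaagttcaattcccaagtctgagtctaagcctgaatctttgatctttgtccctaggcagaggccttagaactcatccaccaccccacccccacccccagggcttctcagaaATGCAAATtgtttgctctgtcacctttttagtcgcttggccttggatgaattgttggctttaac
*Fgfr2*, Class I, chr7:137408212-137408311: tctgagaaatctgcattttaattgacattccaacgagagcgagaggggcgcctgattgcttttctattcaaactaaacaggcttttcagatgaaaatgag
*Fgfr2*, Class II, chr7:137395652-137395911: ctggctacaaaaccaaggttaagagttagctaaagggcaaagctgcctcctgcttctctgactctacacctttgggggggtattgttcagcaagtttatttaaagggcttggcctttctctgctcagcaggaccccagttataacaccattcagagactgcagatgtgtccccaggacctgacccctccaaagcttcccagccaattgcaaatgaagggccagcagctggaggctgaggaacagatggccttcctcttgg
*Etv5*, Class I, chr16:22398592-22398691: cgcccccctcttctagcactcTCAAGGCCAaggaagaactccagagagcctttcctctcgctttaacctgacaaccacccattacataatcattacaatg
*Etv5*, Class I, chr16:22400392-22400591: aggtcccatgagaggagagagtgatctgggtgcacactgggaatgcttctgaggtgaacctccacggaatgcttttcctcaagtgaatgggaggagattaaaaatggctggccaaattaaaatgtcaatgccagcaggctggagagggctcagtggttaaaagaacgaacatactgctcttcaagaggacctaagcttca
*Etv5*, Class II, chr16:22402772-22402891: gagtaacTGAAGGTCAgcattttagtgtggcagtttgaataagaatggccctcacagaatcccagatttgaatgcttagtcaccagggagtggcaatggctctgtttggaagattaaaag
*Etv5*, Class II, chr16:22412012-22412111: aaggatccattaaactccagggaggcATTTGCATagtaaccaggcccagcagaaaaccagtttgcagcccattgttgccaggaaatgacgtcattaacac
*Etv5*, Class I, chr16:22412992-22413251: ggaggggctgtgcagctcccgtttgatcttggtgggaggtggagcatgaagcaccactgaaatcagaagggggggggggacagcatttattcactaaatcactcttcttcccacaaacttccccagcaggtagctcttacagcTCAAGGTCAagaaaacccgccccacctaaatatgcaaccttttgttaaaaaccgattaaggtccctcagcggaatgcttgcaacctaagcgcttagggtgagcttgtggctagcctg
Within 100 bp of the region's centre, an exact octamer was present in 2 of the 4 Class II regions, at *Fgfr1* and *Etv5*, and in 0 of the 7 Class I regions, beside 9.46% of all Class II and 6.98% of all Class I regions of the series. An ESRRB match was present in 2 of the 7 Class I regions, both at *Etv5*, and in 1 of the 4 Class II regions, also at *Etv5*, beside 18.4% of all Class I and 11.9% of all Class II regions. The 2 Class I regions at *Spry4*, which are not printed, had neither motif, and the ESRRB match in the *Fgf4* sequence lies farther than 100 bp from the centre. These are descriptions of few sequences, several of which lie in the same gene.

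All 9 genes had at least 1 region, as had 46.4% of the 22380 protein-coding genes of the annotation. *Etv5* had 14 regions, and only 0.0894% of protein-coding genes had as many. *Fgfr2* and *Spry4* had 8 regions each, a number that 1.12% of genes reached, while *Fgf4* and *Spry2* had 3 each, *Fgfr1*, *Dusp6* and *Etv4* 2 each, and *Spry1* had 1. Per 100 kb of searched sequence, *Spry4* (14.5 regions) and *Etv5* (14.2) stood above *Fgf4* (6.84), *Spry2* (6.69), *Fgfr2* (5.54), *Dusp6* (4.52), *Etv4* (3.6), *Spry1* (2.24) and *Fgfr1* (1.96). Over all protein-coding genes, the mean count was 1.01 regions within 20 kb and the median count was 0, as was the median per 100 kb of searched sequence. The shares of genes with as many regions were not matched for body length. The body was 58411 bp for *Etv5*, 104297 bp for *Fgfr2* and 15001 bp for *Spry4*, beside a median of 15421 bp over all protein-coding genes. The *Fgfr2* count depends on the annotation, in which a lone transcript extends the gene across several neighbours, and it was made without that transcript.

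**Figure D1:**
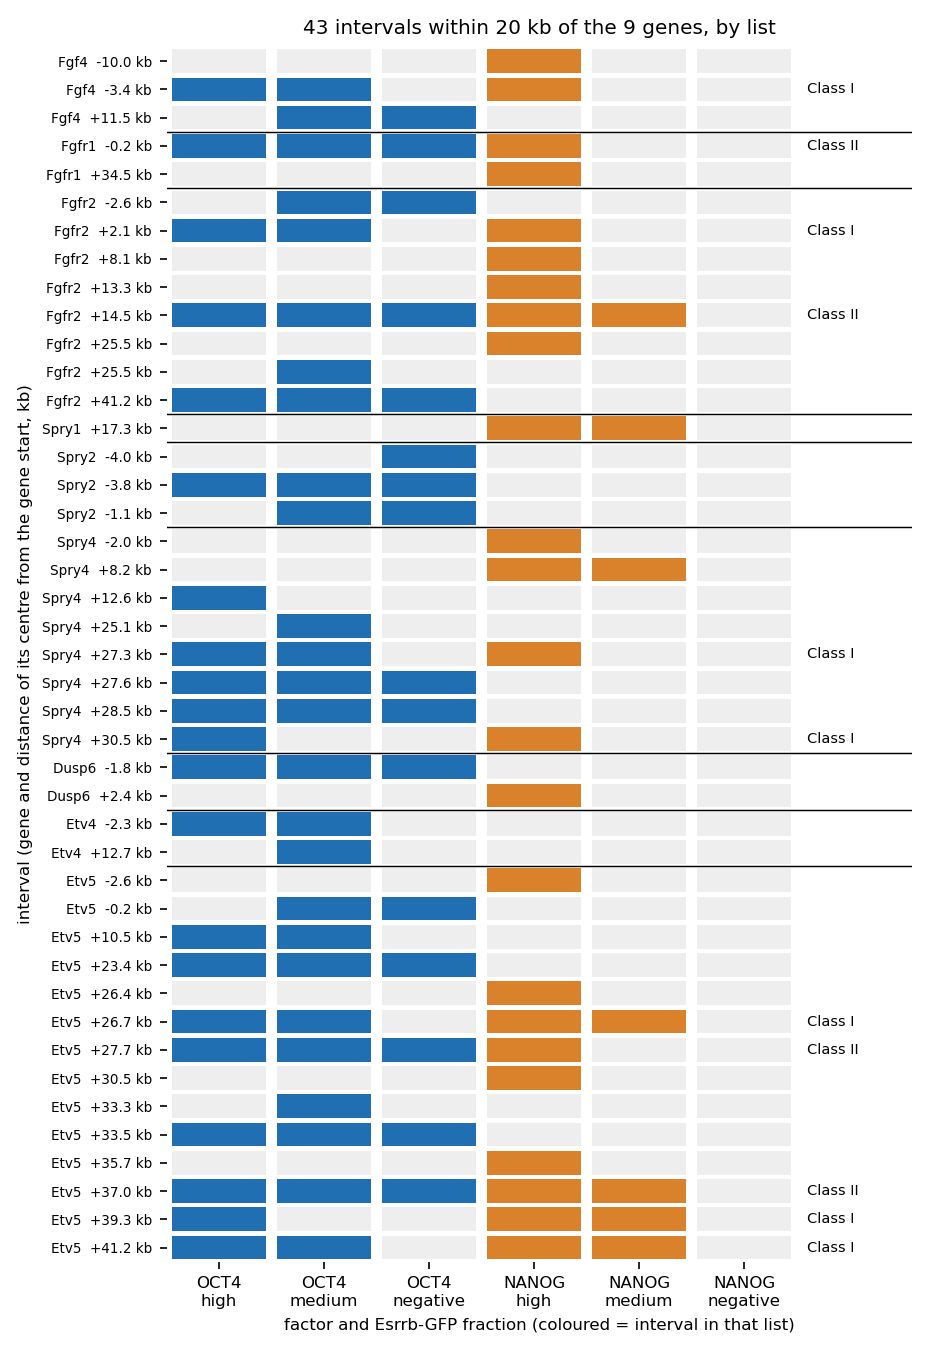
Presence of each of the 43 regions (rows, by gene and by distance of the region's centre from the gene start in kb) in the 6 lists (columns), with OCT4 in blue, NANOG in orange and grey for absence. The NANOG column of Esrrb-GFP negative cells is empty, and its whole list holds only 286 regions. The OCT4 columns hold 21, 26 and 16 regions from high to negative, beside 12449, 14464 and 10369 in the whole lists.

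OCT4 was called at 21 of the regions in Esrrb-GFP high cells, at 26 in medium cells and at 16 in negative cells. The whole OCT4 lists of the series hold 12449, 14464 and 10369 regions in the same order. NANOG was called at 24 in high cells, at 7 in medium cells and at 0 in negative cells, where its whole lists hold 9425, 4729 and 286. For both factors, the fractions thus ranked by number of regions as they do in the whole series. OCT4 in high cells was present at 8 of the 9 genes, all but *Spry1*, compared with 31.5% of protein-coding genes. OCT4 in negative cells was present at 7 of the 9, all but *Spry1* and *Etv4*, compared with 28.4% of genes. NANOG in high cells was present at 7 of the 9, all but *Spry2* and *Etv4*, compared with 23.3% of genes. No gene of the 9 had NANOG in negative cells, where 0.961% of genes have it. Counted by regions, 0 of 43 had it, which allows a share of up to 6.98% by counting error alone, beside 286 of the 23767 regions of the series.

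The ligand gene *Fgf4* lies on chr7:152047291-152051148 on the plus strand. Its Class I region, chr7:152043672-152044151, was centred 3380 bp upstream of the gene start. OCT4 was called there in high and medium cells and NANOG in high cells, so medium cells had OCT4 without NANOG. A region 11520 bp downstream of the start, chr7:152058772-152058851, had the opposite order for OCT4, which was called in medium and negative cells and not in high cells. The remaining region, chr7:152037092-152037431, 10030 bp upstream, was called for NANOG in high cells only, holds an ESRRB motif without mismatch and is closer to *Fgf3*, another ligand gene, at 6751 bp.

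No region of any list overlapped the *Fgf4* gene itself. The gene is known for an enhancer in its 3′ untranslated region at which OCT4 and SOX2 bind side by side. A SOX motif followed closely by an octamer with 1 mismatch was found in the UTR, and it is shown, with both motifs in capitals, because no list holds a region there.
*Fgf4* UTR, plus strand, chr7:152050293-152050322: aaaactCTTTGTTtggATGCTAATgggata
Measured from about the middle of this pair of motifs, the edge of the nearest region of any list lay 6157 bp away. Without read counts, the lists do not tell low signal from no signal at this sequence.

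Both receptor genes had a Class II region, and *Fgfr2* also had a Class I region. *Fgfr1* encodes the main FGF receptor of ESCs, and *Fgfr2* a receptor known for its role in primitive endoderm. At *Fgfr1*, the Class II region chr8:26623792-26624051 was centred 205 bp upstream of the first annotated start. That start belongs to the outermost of 13 annotated start positions, and the next one lies 5138 bp further downstream. OCT4 was called there in all 3 fractions and NANOG in high cells only, and its octamer lies at chr8:26623988-26623995. The other *Fgfr1* region, in an intron at chr8:26658572-26658691, was called for NANOG in high cells only.

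At *Fgfr2*, on the minus strand of chromosome 7, 7 of the 8 regions lay inside the gene. The Class I region chr7:137408212-137408311 was in an intron 2061 bp from the start, with OCT4 in high and medium cells and NANOG in high cells. The Class II region chr7:137395652-137395911 was in an intron 14541 bp from the start and was present in every list except NANOG of negative cells. The 2 classes therefore stand in the same gene, and OCT4 was kept through all fractions at the intronic region farther from the start and not at the nearer one. A further intronic region, 41241 bp from the start, had OCT4 in all 3 fractions and never NANOG. Upstream of the gene, at chr7:137412872-137412931 and 2579 bp from the start, OCT4 was called in medium and negative cells and not in high cells. The other 4 regions were each in 1 list only, NANOG of high cells for 3 intronic regions at 8091, 13331 and 25451 bp, and OCT4 of medium cells for a region in a coding exon at 25531 bp. The last 2 of these stand 20 bp apart.

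*Etv5* and *Etv4* encode related ETS transcription factors whose transcription follows ERK activity. *Etv5* lies on chr16:22381382-22439792 on the minus strand, and 11 of its 14 regions stood in a stretch of 17.9 kb inside the gene, chr16:22398592-22416451, at which OCT4 was called in 8 regions and NANOG in 8. All 5 Class I and Class II regions of the gene were in this stretch. The Class I regions chr16:22398592-22398691 and chr16:22412992-22413251, the latter overlapping a coding exon, had both factors in high and medium cells and neither in negative cells. The Class I region chr16:22400392-22400591 had NANOG in high and medium cells and OCT4 in high cells only, so there medium cells had NANOG without OCT4. Of the Class II regions, chr16:22402772-22402891 was in every list except NANOG of negative cells, and chr16:22412012-22412111, which holds the octamer on the minus strand, had OCT4 in all 3 fractions and NANOG in high cells only. Both Class II regions lay between Class I regions along the gene, and the one with the octamer was 880 bp from a Class I region.

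Of the other 9 *Etv5* regions, 4 had NANOG in high cells only, 3 of them in introns and the fourth 2619 bp upstream of the start. OCT4 without NANOG was called in all 3 fractions at intronic regions 23381 and 33501 bp from the start, in high and medium cells at 10521 bp and in medium cells only at 33341 bp. The region nearest to the *Etv5* start, chr16:22439912-22439991, centred 159 bp upstream, was called for OCT4 in medium and negative cells and not in high cells. The gene thus had OCT4 regions that were present in high cells and absent from negative cells as well as a region at the start with the reverse. *Etv4*, with 2 regions, had OCT4 and no NANOG. The region 2276 bp upstream of its start, chr11:101648872-101649051, was called for OCT4 in high and medium cells and has an octamer at chr11:101648978-101648985, and an intronic region 12724 bp from the start was called in medium cells only.

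*Dusp6* encodes a phosphatase that inactivates ERK1 and ERK2 in the cytoplasm. Upstream of the gene, 1834 bp from the start, chr10:98723952-98724111 had OCT4 in all 3 fractions and no NANOG. An octamer lies just beyond the edge of this region, at chr10:98724116-98724123. An intronic region 2356 bp from the start was called for NANOG in high cells only. The 2 factors were therefore at separate regions, 4060 bp apart, at this gene.

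The Sprouty genes encode inhibitors of signalling from receptor tyrosine kinases to ERK, and the 3 examined here differed from each other. *Spry2* had OCT4 only, in 3 regions within a stretch of 3.1 kb upstream of its start. Of these, 1075 bp upstream, OCT4 was called in medium and negative cells, at 3845 bp in all 3 fractions, and at 3975 bp in negative cells only. The latter 2 are 20 bp apart, and *Spry2* was the only gene of the 9 with more OCT4 regions in negative than in high cells, 3 against 1. *Spry1* had the reverse, NANOG without OCT4, at a region 17342 bp downstream of its start, called in high and medium cells.

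*Spry4*, on the minus strand of chromosome 18 at 38745922-38760922, had 8 regions. Of these, 5 lay within a stretch of 5.6 kb downstream of the gene, 9951 to 15371 bp from its end, and all 5 had OCT4. In this stretch, 2 were Class I regions, of which chr18:38733472-38733751 had OCT4 in high and medium cells and NANOG in high cells, and chr18:38730352-38730551 had both factors in high cells only. Another 2 had OCT4 in all 3 fractions and never NANOG, and 1 had OCT4 in medium cells only. The Class I region chr18:38733472-38733751 is 100 bp from a region that kept OCT4 in negative cells, and the 2 taken as 1 region would count as Class II. Within or upstream of the gene, OCT4 was called in high cells only at a region in the UTR, NANOG in high and medium cells in an intron 8221 bp from the start, and NANOG in high cells only 1969 bp upstream of the start. That upstream region lies inside the body of *Arhgap26*.

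**Figure D2:**
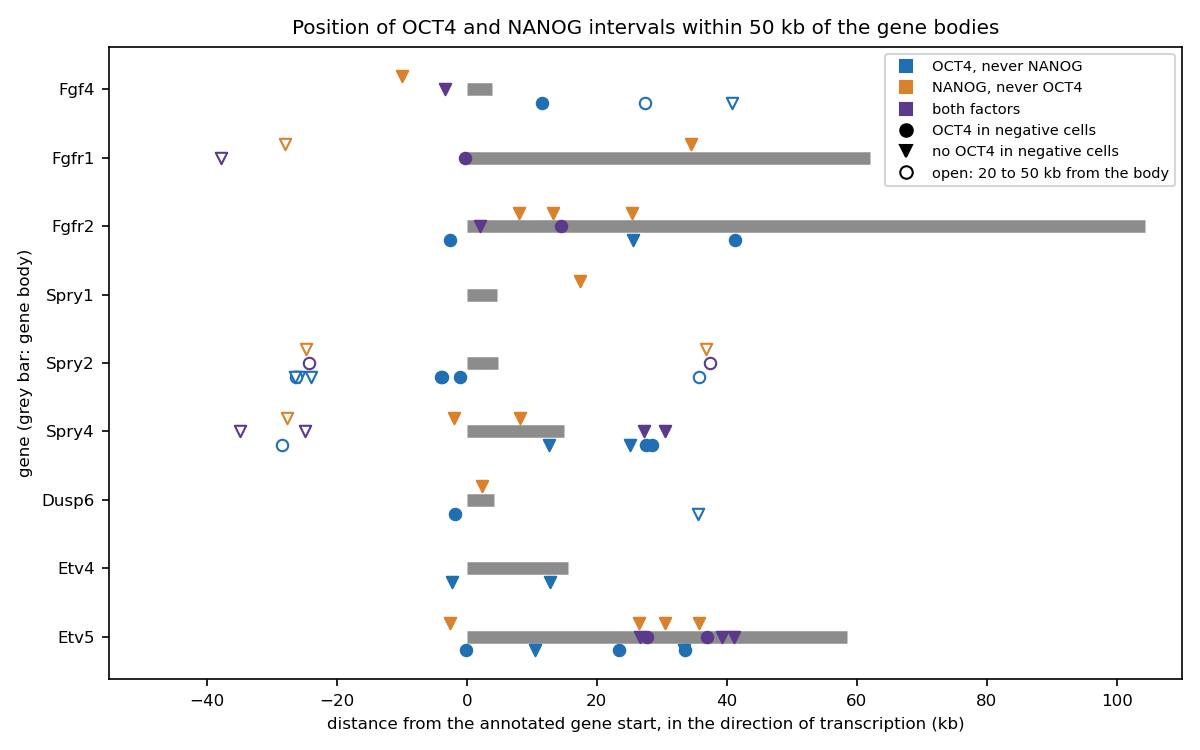
Position of each region's centre along the 9 genes in kb from the annotated gene start, with the gene body as a grey bar, colour for the factors, circles for OCT4 in negative cells, triangles for its absence there, and open symbols for regions 20 to 50 kb from the body. Symbols are shifted up for NANOG without OCT4 and down for OCT4 without NANOG, and *Etv5* shows the 11 regions that stand within 17.9 kb.

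When the fractions were compared over all 43 regions, OCT4 was lost from high to negative cells at about the rate of the whole series. Of the 21 OCT4 regions of high cells, 10 (47.6%, 95% Wilson interval 28.3 to 67.6%) were not bound in negative cells, beside 45.1% over all regions of the series. In medium cells 3 of the 21 were not bound (14.3%, beside 21.3% over all regions). All intervals given here cover counting error over regions only, and regions of the same gene are not independent. Of the 30 regions with OCT4 in any fraction, 11 were called in all 3 fractions (36.7%, beside 31.3% of all OCT4 regions of the series). Another 7 were called in high and medium (23.3%, beside 22.3%) and 3 in high only (10%, beside 8.41%). Medium only held 4 (13.3%, beside 12.6%), medium and negative 4 (13.3%, beside 12.9%) and negative only 1 (3.33%, beside 6.4%). The combination of high and negative without medium was found at 0 of the 30, and it is also uncommon over the series, at 6.12%.

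OCT4 was also called at regions that were not in the list of high cells. These were 5 of the 16 regions with OCT4 in negative cells (31.2%, interval 14.2 to 55.6%), beside 34.1% over all regions, and 8 of the 26 in medium cells (30.8%), beside 32.3%. The 9 regions called in medium or negative but not in high cells were spread over 6 genes, *Fgf4*, *Fgfr2*, *Spry2*, *Spry4*, *Etv4* and *Etv5*. NANOG was called in no fraction at any of these 9, and over all such regions of the series it was called at 8.01%. Some of the 9 are close neighbours of regions that high cells had. The *Fgfr2* region in medium cells only lies 20 bp from a region with NANOG in high cells. The *Spry2* region in negative cells only lies 20 bp, and the *Etv5* region in medium cells only 40 bp, from a region with OCT4 in all fractions. NANOG in some fraction was found at 52.4% of the OCT4 regions that high cells had, beside 30% over all regions.

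NANOG was lost at every one of its regions. All 24 NANOG regions of high cells were absent from the list of negative cells (100%, interval 86.2 to 100%), beside 97.5% over all NANOG regions of high cells, so these genes share a loss that the whole series shows. By medium cells 17 of the 24 were gone (70.8%, interval 50.8 to 85.1%), beside 52.3%. Without *Etv5* the count was 12 of 15 (80%, interval 54.8 to 93%), and this interval does not include 52.3%. With a distance of 50 kb the share was 51.5%. These differences were not tested. The 7 regions that kept NANOG in medium cells were 4 at *Etv5* and 1 each at *Fgfr2*, *Spry1* and *Spry4*. The 7 genes with NANOG regions had no region where NANOG was new in medium cells. Such regions are rare over the series too. Of all NANOG regions, 2.08% were called in medium cells only and 0.289% in medium and negative cells only.

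Binding by both factors in high cells made up a larger share at these genes than over the series, which was not tested for lack of replicates. Of the 21 OCT4 regions of high cells, 11 also had NANOG (52.4%, interval 32.4 to 71.7%), beside 29.5% over all regions. Without *Etv5*, which holds 5 of the 11, the count was 6 of 13 (46.2%, interval 23.2 to 70.9%), and this interval includes the 29.5% of the series. Seen from NANOG, 11 of 24 regions also had OCT4 (45.8%, interval 27.9 to 64.9%), beside 39%. Of the 11 regions with both factors, 7 were Class I (63.6%, interval 35.4 to 84.8%), beside 55.3% over the series, and 4 were Class II (36.4%, interval 15.2 to 64.6%), beside 42.6%, so the split between the classes was not distinguishable from that of the series at this number of regions. *Etv5* and *Fgfr2* had regions of both classes, *Fgf4* and *Spry4* had Class I regions only, and *Fgfr1* had a Class II region only. With intervals within 500 bp of each other joined, *Spry4* had both classes. Class I regions were present at 4 of the 9 genes and at 6.97% of protein-coding genes, and Class II regions at 3 of the 9 and at 5.02%.

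**Figure D3:**
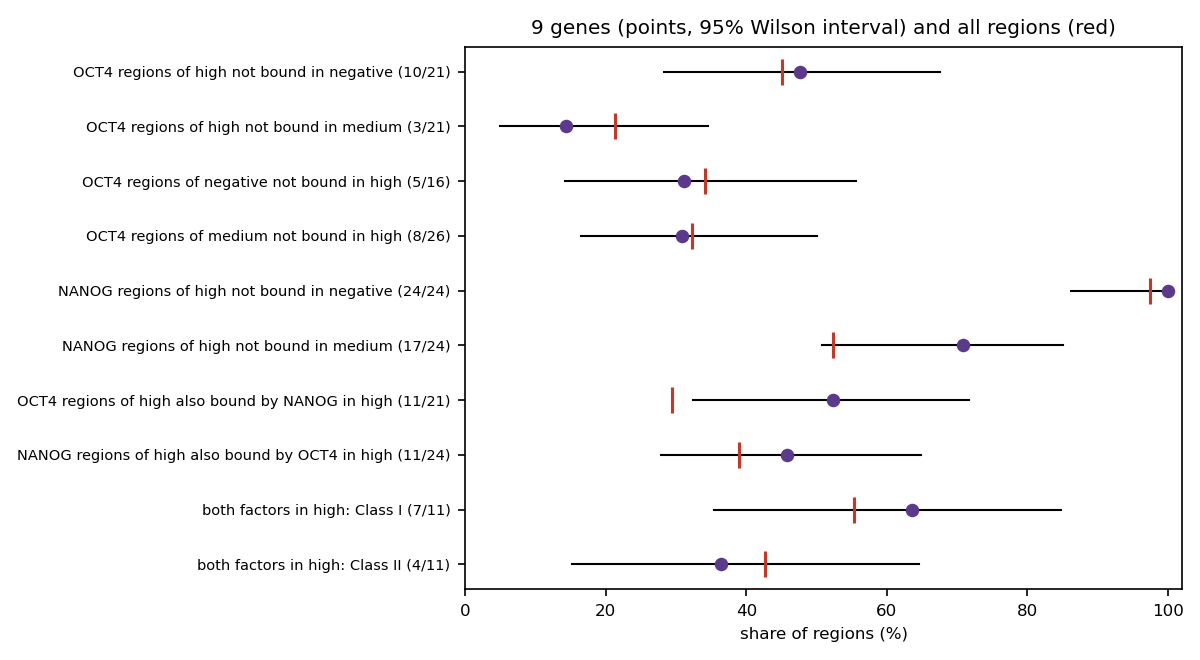
Shares of regions in percent at the 9 genes (points, with 95% Wilson intervals over regions and the counts in parentheses) and over all regions of the series (red marks) for the 10 comparisons. The red mark lies outside the interval for OCT4 regions of high cells that also had NANOG, 52.4% against 29.5%, and inside it for the other comparisons. Without *Etv5* that share is 46.2% and its interval includes 29.5%. Also without *Etv5*, the share of NANOG regions of high cells not bound in medium cells is 80%. Its interval, 54.8 to 93%, does not include the 52.3% of the series.

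The position of the regions was compared with their presence in the lists, by a limit of 5 kb upstream that was chosen after the values had been seen. Of the 43 regions, 11 were within 5 kb upstream of the start of their gene, at 8 of the 9 genes. OCT4 was called in negative cells at 7 of these 11 (63.6%) and at 9 of the other 32 (28.1%). Over the series the same shares were 48.5% within 5 kb upstream of a protein-coding gene and 43.2% elsewhere. Of the 11 upstream regions, 3 were at *Spry2*, and without them the share was 4 of 8 (50%). Of the regions with OCT4 in high cells, 3 of 5 upstream (60%) and 8 of 16 elsewhere (50%) were bound in negative cells, beside 58.1% and 54.6% over the series. NANOG had the reverse order, with 4 of the 11 (36.4%) and 20 of the other 32 (62.5%) called in high cells, beside 29.5% and 40.6% over the series. At *Fgfr2*, *Spry2* and *Etv5*, an upstream region was called for OCT4 in medium and negative cells and not in high cells. Upstream regions of *Fgf4* and *Etv4* had the reverse order, with OCT4 in high and medium cells and none in negative cells. Introns held 21 of the 43 regions, 2 overlapped coding exons and 1 a UTR. The median width was 120 bp, beside 80 bp over the series. Of the regions, 58.1% were centred in a protein-coding gene body, beside 60.7% of the 15779 regions of the series that lie within 20 kb of such a body.

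Motifs were searched on both strands within 100 bp of each region's centre. The octamer ATGCAAAT, which is also part of the Oct-Sox motif, was present in 4 of the 43 regions (9.3%, interval 3.68 to 21.6%), beside 7.88% of all regions. All 4, at *Fgfr1*, *Dusp6*, *Etv4* and *Etv5*, were among the 30 regions with OCT4 (13.3%, beside 9.48%), and 3 of them had OCT4 in all fractions, the exception being *Etv4*. The octamer was thus in 3 of the 11 regions with OCT4 in all fractions (27.3%, interval 9.75 to 56.6%), beside 11.7% over the series, which lies inside the interval. The composite Oct-Sox motif with at most 2 mismatches was found in 0 of the 30, which allows a share of up to 10%, beside 11.7% over all OCT4 regions. An octamer or Oct-Sox match was thus in 4 of the 43 regions (9.3%, interval 3.68 to 21.6%), beside 15.1% of all regions. Among the 30 regions with OCT4 it was in 4 (13.3%, interval 5.31 to 29.7%), beside 18.3%. These series shares lie above those of the 9 genes and inside the intervals. The SOX motif CTTTGTT was present in 1 region, at *Spry1* (2.33%, interval 0.412 to 12.1%), beside 12.3% of all regions. That series share lies just above the interval, and the difference was not tested. The ESRRB motif was present in 6 regions (14%, interval 6.56 to 27.3%), at *Fgf4*, *Fgfr2*, *Etv4* and *Etv5*, beside 11.2%, and GGGNGTGG, a motif of KLF factors, in 7 (16.3%), beside 11.9%. The ETS motif CCGGAAGT, which ETV4 and ETV5 could recognise, was in none of the 43 regions and in 0.324% of all. A match of letters is no evidence of binding, and its absence from a window says nothing about the factor.

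Other genes of the pathway were examined with a list of 46 ligands, receptors, adaptors, kinases, inhibitors and targets, of which 45 were found in the annotation. At least 1 region was within 20 kb of 34 of the 45 (75.6%), beside 46.4% of all protein-coding genes, and the median body length was 16.1 kb for the list and 15.4 kb for all genes. OCT4 in high cells was present at 30 (66.7%, beside 31.5% of all protein-coding genes) and OCT4 in negative cells at 23 (51.1%, beside 28.4%). NANOG in high cells was present at 18 (40%, beside 23.3%) and NANOG in negative cells at 2 (4.44%, beside 0.961%), *Fgf5* and *Egr1*. All 8 adaptor genes had regions, as had 5 of the 7 ligand genes, 5 of the 6 RAS and RAF genes, 7 of the 10 feedback genes and 6 of the 7 ERK target genes, while 2 of the 4 MEK and ERK genes and 1 of the 3 receptor genes had any. The most regions were found at *Sos1* (9), which encodes an exchange factor for RAS, *Spred2* (8), which encodes a relative of the Sprouty proteins, *Myc* (6), *Fgf1* (5) and *Il17rd* (5). Class I regions were within 20 kb of 6 of these genes (13.3%, beside 6.97% of all protein-coding genes), *Fgf3*, *Frs2*, *Frs3*, *Il17rd*, *Nf1* and *Myc*. That of *Fgf3* is the Class I region already described upstream of *Fgf4*, and all 2 regions of *Fgf3* were also counted for *Fgf4*. Class II regions were within 20 kb of 11.1% of the listed genes, beside 5.02%, and these genes included *Fgf17*, *Spred1*, *Spred2* and *Etv1*. No gene of the list had both classes.

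**Figure D4:**
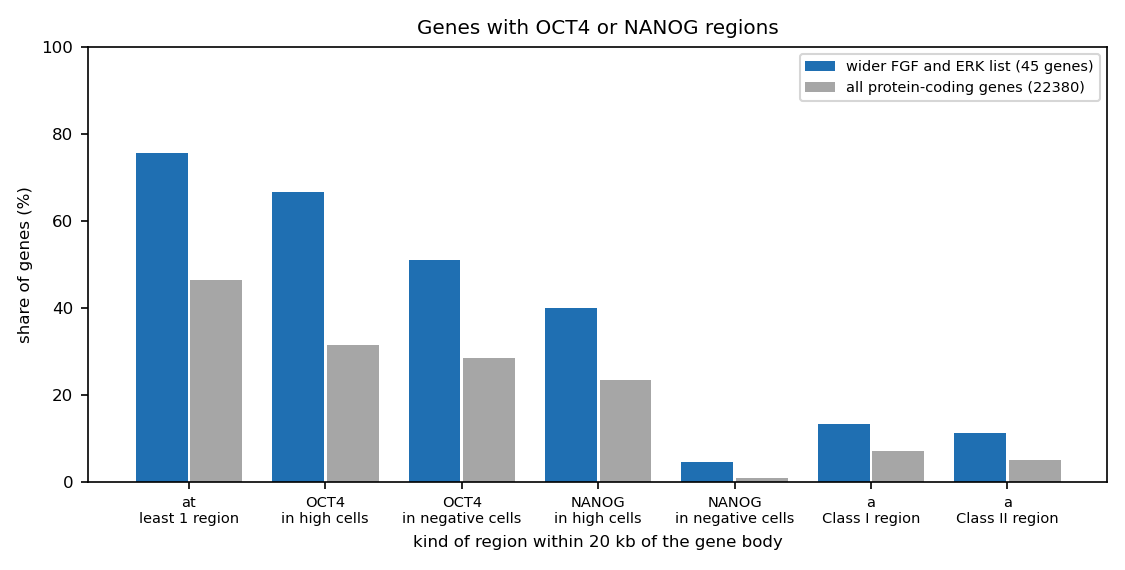
Share of genes in percent with each kind of region within 20 kb of the gene body, for the 45 listed FGF and ERK pathway genes (blue) and all 22380 protein-coding genes (grey). The blue bars are the taller ones for all 7 kinds, from 75.6% against 46.4% for any region to 4.44% against 0.961% for NANOG in negative cells.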

How the data were processed

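OCT4 and NANOG ChIP-Seq was analysed in 3 sorted fractions of E-GFPd1 ESCs (Esrrb-GFP high, medium and negative), 1 library per factor and fraction, each from pooled ChIPs. Groups follow the antibody and the sorted fraction that the labels name. Reads were aligned (Bowtie is named in the submitters' processing notes) and processed by the authors in GeneProf, peaks were called with SISSRs, overlapping peaks of all datasets were merged, and a region counted as lost below 50% of its maximum signal after normalization for depth. The deposited files are lists of intervals on mm9 without score, signal or count, so the depth per library is unknown. Widths are multiples of 20 bp.

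The 51722 entries of the 6 lists were reduced to 23767 distinct intervals, and a region was bound in a fraction if its interval was in that list. Starts were converted to positions counted from 1. Gene bodies came from GENCODE vM1 for NCBIM37, which is mm9. For *Fgfr2*, the annotated body of 3009069 bp rests on transcript Fgfr2-007, which spans neighbouring genes, and the body of the other 28 of 29 transcripts (104297 bp) was used after this had been seen. *Hras* was found under its older symbol, and *Spry3* was not analysed here. Sequences came from the NCBIM37 genome. Motifs were octamer ATGCAAAT, SOX CTTTGTT, KLF GGGNGTGG and ETS CCGGAAGT without mismatch, ESRRB TCAAGGTCA with at most 1 mismatch and the composite Oct-Sox motif with at most 2, on both strands.

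Shares have 95% Wilson intervals and are set beside the share over all regions or protein-coding genes. Where a count was 0, 3 counts of the total give the limit. The genes named are the 9 examined, the 5 genes of the wider list with the most regions, and those with a Class I or Class II region, except 1 gene that is not reported here, with *Fgf5* and *Egr1* named after their values were seen. The members and the lists were chosen with earlier results of these data known. Alternatives were distances of 10 and 50 kb, the closest gene only, joining of intervals within 500 bp, wider intervals only, windows of 50 and 250 bp, other mismatch limits and, added after the data had been seen, the annotated *Fgfr2* body and leaving out *Etv5*. Python 3.11.15, numpy 2.4.6, scipy 1.17.1 and matplotlib 3.10.9 were used. On simulated data, 18 of 18 known answers were recovered.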

Additional observations from a re-analysis of the deposited data

How the results depend on the processing

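No paired analysis was possible because there was 1 library per factor and fraction. Of the 11 results, 66 values under the alternatives moved by at most 1.5 times (counts) or stayed within the counting interval (shares), and 5 did not. With the annotated *Fgfr2* body the genes had 80 regions instead of 43. Without *Etv5*, regions bound by both factors fell from 11 to 6, Class I regions from 7 to 4 and Class II regions from 4 to 2. Class II regions rose to 6, which is 1.5 times the count, both with a distance of 50 kb and with the annotated *Fgfr2* body. With intervals within 500 bp joined, Class I regions fell from 7 to 6 and Class II regions rose from 4 to 5, because a *Spry4* region changed class. With 1 mismatch allowed in the octamer, 39.5% of the regions had an octamer or Oct-Sox match, beside 40.9% of all regions. Under the main setting these shares were 9.3% and 15.1%. The share of NANOG regions of high cells that were gone by medium cells ranged from 51.5%, with a distance of 50 kb, to 80%, without *Etv5*. Unknown depth limits all statements on absence from a list.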

Other observations

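Further from the gene bodies, 20 to 50 kb away, another 18 regions were present, and 9 of them were near *Spry2*. These stood in 2 groups, 1 of 6 regions upstream of the gene, 23965 to 26385 bp from its start, and 1 of 3 regions downstream, 35645 to 37335 bp from its start. Each group held a Class II region, chr14:106320132-106320371 upstream and chr14:106258492-106258911 downstream, with OCT4 in all 3 fractions and NANOG in high and medium cells. *Spry2*, which had no NANOG within 20 kb, thus had NANOG at 4 regions beyond that distance. At 6 of the 18 regions, 4 near *Spry4* and 2 near *Fgf4*, the body of another gene was closer.

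NANOG was called in high cells at 9 of the 18 regions, 4 near *Spry2*, 3 near *Spry4* and 2 near *Fgfr1*, and it was kept in medium cells at all 9 (100%, 95% Wilson interval 70.1 to 100%). Within 20 kb of the genes it was kept at 7 of 24 (29.2%, interval 14.9 to 49.2%). Over all NANOG regions of high cells, the share kept in medium cells was 48.5% within 20 kb of a protein-coding gene body and 49.5% at 20 to 50 kb. The difference at these genes was noticed in the data, rests on 3 loci in the farther range and was not tested. NANOG was called in negative cells at none of the 9.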
